A study of Mus musculus with 18 samples.

Results

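The genes described here are 10 of the 55385 genes in the deposited table, chosen by symbol because they encode proteins of fatty acid uptake and binding (*Cd36*, *Fabp4*, *Fabp5*, *Lpl*), triglyceride synthesis (*Dgat1*, *Dgat2*), the lipid droplet coat (*Plin2*), lipolysis (*Pnpla2*, *Lipa*) and fatty acid entry into mitochondria (*Cpt1a*). The rule uses no measured value, although the genes were picked with earlier results of these data known, and all 10 were among the 14979 genes that passed the filter on low counts. They were measured by RNA-seq in bone marrow-derived macrophages (BMDM), cells grown from the bone marrow of 12-week-old female C57BL/6J mice in medium with L929 culture supernatant, a source of macrophage growth factor. The labels name 3 individual mice as the source of 6 groups with 3 libraries each. Cells received vehicle (Veh, 0.1% DMSO), 250 µM hemicholinium-3 (HC3, which blocks choline uptake) or 5 µM RSM-932a (RSM, a choline kinase inhibitor) for 24 h, and then stayed naïve (M[0]) or were given IL-4 at 20 ng/mL (polarized, M[IL-4]) over a further 24 h. No gene was altered in any group, so no targeted gene is available to check the labels.

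Macrophages take up fatty acids through surface receptors or after lipoprotein lipase has freed them from circulating triglyceride, and they take up whole lipoproteins whose cholesteryl esters and triglycerides are cleaved in the lysosome. Fatty acids in the cytosol are carried by binding proteins, and are either stored as triglyceride in lipid droplets or burned in mitochondria. IL-4-polarized macrophages are known for fatty acid uptake, lysosomal lipolysis and oxidation. Choline feeds phosphatidylcholine synthesis, which shares its diacylglycerol precursor with triglyceride synthesis. The comparisons ask how blocking choline uptake or phosphorylation, with or without IL-4, changed the expression of these genes.

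Values are the authors' counts of exonic reads per gene, given in the order of replicates 1, 2 and 3. They were scaled here by library size and edgeR's TMM factors to CPM, the share of a library's counts in millionths. Changes are log2 fold changes ± SE, and the FDR is the Benjamini-Hochberg adjusted p of edgeR's quasi-likelihood test over all 14979 genes. A gene rose or fell where its FDR was under 0.05, and was called 2-fold changed where its log2 fold change was also at least 1 in size. Libraries held 17457796 to 19522255 counts, so every member except *Dgat2* had at least 265 counts in each library, and *Dgat2* had 7 to 57. For a single gene, the smallest p of an exact permutation test at this group size is 0.1. In these bulk samples fewer cells of a type and less RNA per cell cannot be told apart.

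Of the 8 macrophage markers examined, all had counts in every group, and their summed level was 20277 to 21364 CPM in Veh M[0], 8707 to 9800 CPM in HC3 M[0] and 15750 to 17196 CPM in RSM M[0]. After IL-4 it was 11801 to 12146 CPM with Veh, 7469 to 8657 CPM with HC3 and 10601 to 12982 CPM with RSM. Adipocytes use the same lipid genes, but their 6 markers summed to at most 0.754 CPM in any library, with *Lep* at 0 counts throughout and *Plin1* at no more than 2 counts in a library. The 6 neutrophil and 6 dendritic cell markers summed to at most 1.94 and 3.37 CPM, with *Elane* and *S100a9* at 0 counts. Stromal markers (at least 5 of 6 with counts in every group, led by the collagen genes *Col1a1* and *Col1a2*, and *Lum* with 3 counts in all libraries together) summed to 513 to 865 CPM in Veh M[0], 1220.4 to 1679 CPM in HC3 M[0] and 1022 to 1465 CPM in RSM M[0]. In M[IL-4] their range was 275 to 648 CPM with Veh, 549.5 to 1039 CPM with HC3 and 532 to 1057 CPM with RSM. Counts of the mitochondrial chromosome took 1.68 to 2.2% of a library with Veh, 2.5 to 3.45% with HC3 and 0.665 to 0.829% with RSM. The sum followed the collagens, while *Dcn* stood at 8.5 ± 2.06 CPM in Veh M[0] and 2.99 ± 1.06 CPM in RSM M[0] (SD, n = 3), and at 5.93 ± 0.697 and 2.02 ± 0.555 CPM after IL-4. The macrophage sums were lower with the inhibitors than with Veh except for RSM in M[IL-4], where they overlapped. *Lyz2* was the largest single part of these sums. In M[0] it stood at 11633 CPM with Veh and 11660 CPM with RSM, while *Csf1r* stood at 3967 and 1720 CPM. In M[IL-4] *Lyz2* stood at 4531 and 5903 CPM, and *Csf1r* at 3508 and 2142 CPM. Of the 8 macrophage markers, 7 fell with RSM in M[0], and 2 rose and 1 fell with RSM in M[IL-4]. The stromal sums were higher without overlap in M[0] only. The mitochondrial share was higher with HC3 and lower with RSM. The part of these levels in the results below was not tested.

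With both inhibitors and in both polarizations, *Plin2* and *Fabp5* rose, and *Pnpla2*, *Lpl* and *Lipa* fell. *Cd36* fell in all of these comparisons but HC3 in M[0], *Dgat2* rose with RSM, *Cpt1a* fell with HC3, *Fabp4* passed in 2 of the 4 comparisons and *Dgat1* in none of them. These calls and the counts below are from the fit without a replicate block. With a replicate block within each polarization, *Cd36* and *Dgat2* also passed with HC3 in M[0] (FDR of 0.0163 and 0.0247). *Cpt1a* then also passed with RSM in M[IL-4] (0.0268), and *Fabp4* with HC3 in M[IL-4] (8.42e-05) and RSM in M[0] (0.00384). HC3 in M[0] raised 3 of the 10 members and lowered 4, where 22.6% of all tested genes rose and 21.5% fell. RSM in M[0] also raised 3 and lowered 4, against 20.5% and 20.7% of all genes. In M[IL-4], HC3 raised 2 and lowered 5, against 18.9% and 19.9%, and RSM raised 3 and lowered 5, against 20.1% and 18.5%. Both inhibitors were compared with the same vehicle libraries within a polarization. The 2-fold threshold was reached by 1 member with HC3 in M[0] (*Fabp5*, 12.0% of all genes) and 2 with RSM in M[0] (*Lpl* and *Dgat2*, 11.6% of all genes). With IL-4 it was reached by the same members, 1 with HC3 (10.3% of all genes) and 2 with RSM (11.0%). The median log2 fold change over the 10 members was -0.016, -0.14, -0.04 and -0.095 for HC3 M[0], RSM M[0], HC3 M[IL-4] and RSM M[IL-4], beside 0.023, 0.0053, 0.0063 and 0.019 over all genes.

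**Figure D1:**
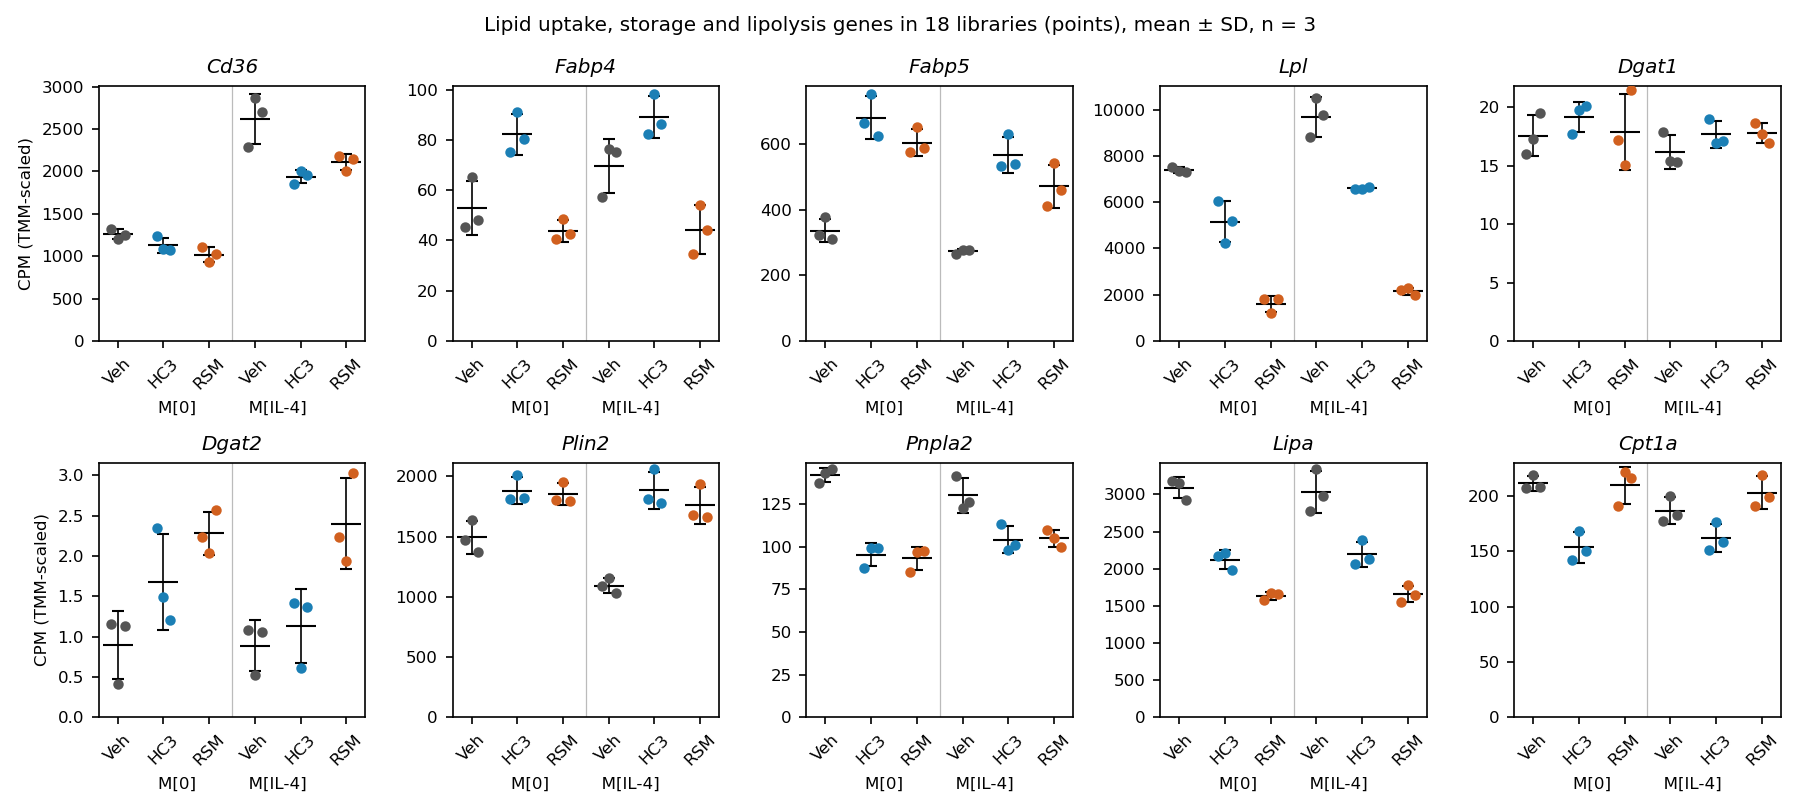
CPM scaled by TMM (vertical axes, each starting at 0) of the 10 members in the 18 libraries. Each point is a library, colours mark Veh, HC3 and RSM, horizontal marks are group means and bars are SD (n = 3). *Lpl* in the RSM libraries lies at 1213 to 2283 CPM, and at 4245 CPM or more in all others.

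*Lpl* (chr8:68880491-68907448, plus strand, GRCm38) encodes lipoprotein lipase, the secreted enzyme that frees fatty acids from triglyceride-rich lipoproteins. In M[0] its level was 7529, 7348 and 7315 CPM with Veh, 6037, 4245 and 5192 CPM with HC3 and 1804, 1213 and 1813 CPM with RSM. With IL-4 the level was 8804, 10520.2 and 9773 CPM with Veh, 6564, 6576 and 6679 CPM with HC3 and 2194, 2283 and 1978 CPM with RSM. Within each polarization the 3 treatments did not overlap, with Veh highest and RSM lowest. RSM lowered *Lpl* 4.6-fold in M[0] (log2 fold change -2.20 ± 0.14, FDR = 2.19e-10) and 4.51-fold in M[IL-4] (-2.17 ± 0.13, FDR = 3.39e-10). These were the largest changes of any member with an inhibitor. HC3 lowered it 1.43-fold in M[0] (FDR = 0.00298) and 1.47-fold in M[IL-4] (FDR = 0.00206), and without replicate 3 these 2 changes were -0.53 and -0.56 with FDR of 0.0548 and 0.0547. The direct difference between the inhibitors was 1.68 ± 0.13 in M[0] (FDR = 6.83e-08) and 1.62 ± 0.13 in M[IL-4] (FDR = 8.8e-08), higher with HC3. A stretch of 5.39% of its longest coding transcript is near-identical to parts of 9 other genes, so the counts from this stretch are uncertain, since pairs with ambiguous placement were dropped by the mapping quality filter.

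*Cd36* (chr5:17781690-17888801, minus strand) encodes a scavenger receptor that takes up oxidized lipoproteins and long-chain fatty acids. It was the member that IL-4 raised most, from 1322, 1202 and 1253 CPM in Veh M[0] to 2293, 2862 and 2696 CPM in Veh M[IL-4]. With HC3 the levels were 1234, 1083 and 1068 CPM in M[0] and 1858, 1999.6 and 1963 CPM in M[IL-4], and with RSM 1105, 927 and 1029 CPM and 2184, 2004 and 2147 CPM. All M[IL-4] libraries were above all M[0] libraries, and the inhibitor-treated M[IL-4] libraries were all below the Veh ones. HC3 lowered *Cd36* by 0.43 ± 0.083 on the log2 scale in M[IL-4] (FDR = 0.000384), while its change in M[0] was -0.16 ± 0.083 (FDR = 0.136, and 0.0163 with a replicate block within each polarization). RSM lowered it by 0.30 ± 0.083 in M[0] (FDR = 0.00663) and by 0.31 ± 0.083 in M[IL-4] (FDR = 0.006). Without replicate 3 the RSM changes were -0.31 and -0.30 with FDR of 0.1 and 0.122, and without replicate 2 the change in M[IL-4] was -0.22 (FDR = 0.056).

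*Fabp4* (chr3:10204088-10208576, minus strand) and *Fabp5* (chr3:10012548-10016607, plus strand) lie near each other and encode cytosolic fatty acid-binding proteins of adipocytes and macrophages. *Fabp5* read 323, 377 and 309.8 CPM in Veh M[0], 666, 754 and 625 CPM in HC3 M[0] and 575, 652 and 588 CPM in RSM M[0]. After IL-4 the libraries read 267, 277 and 279 CPM with Veh, 534, 632 and 538 CPM with HC3 and 412, 542 and 462 CPM with RSM. All 12 inhibitor libraries exceeded all 6 Veh libraries. HC3 raised it 2.02-fold in M[0] (log2 fold change 1.02 ± 0.1, FDR = 1.32e-07) and 2.07-fold in M[IL-4] (1.05 ± 0.1, FDR = 1.13e-07), and RSM raised it 1.8-fold (FDR = 1.45e-06) and 1.72-fold (FDR = 4.07e-06). The HC3 changes lie at the edge of the 2-fold threshold and fell to 0.99 without replicate 1 in M[0] and to 0.97 without replicate 2 in M[IL-4]. A pseudogene, *Gm6166*, matches 41.2% of the *Fabp5* coding transcript and had 15 to 75 counts per library, against 4771 to 14715 for *Fabp5*.

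*Fabp4* rose with HC3 in M[0] and fell with RSM in M[IL-4]. It read 45.4, 65.1 and 48 CPM in Veh M[0], 75.1, 91.2 and 80.5 CPM in HC3 M[0] and 40.4, 48.5 and 42.4 CPM in RSM M[0]. With IL-4 they were 57.2, 76.3 and 75.4 CPM with Veh, 82.3, 98.3 and 86.4 CPM with HC3 and 34.7, 54.3 and 44 CPM with RSM. All HC3 libraries were above the Veh and RSM libraries of their polarization, and RSM overlapped Veh in M[0] but not in M[IL-4]. HC3 raised *Fabp4* in M[0] by 0.64 ± 0.15 (FDR = 0.00219) and RSM lowered it in M[IL-4] by 0.65 ± 0.15 (FDR = 0.0023). The remaining changes, 0.36 for HC3 in M[IL-4] (FDR = 0.071) and -0.27 for RSM in M[0] (FDR = 0.179), passed only with other settings, among them the replicate block within each polarization (FDR of 8.42e-05 and 0.00384). Without replicate 3 the HC3 change in M[0] was 0.59 (FDR = 0.0743) and the RSM change in M[IL-4] was -0.58 (FDR = 0.0892).

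Triglyceride synthesis ends with the acyltransferases encoded by *Dgat1* (chr15:76502015-76511953, minus strand) and *Dgat2* (chr7:99153658-99182719, minus strand), which are unrelated in sequence. *Dgat1* stayed within 15.1 to 21.5 CPM in all 18 libraries, and its groups overlapped in every comparison. None of its inhibitor changes passed the test, with 95% intervals from -0.12 to 0.37 for HC3 and -0.22 to 0.28 for RSM in M[0] on the log2 scale, and from -0.13 to 0.38 and -0.12 to 0.38 in M[IL-4].

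*Dgat2* was the member with the fewest reads. It had 1.16, 0.411 and 1.13 CPM in Veh M[0], 2.35, 1.49 and 1.21 CPM in HC3 M[0] and 2.24, 2.04 and 2.57 CPM in RSM M[0]. The M[IL-4] values were 1.08, 0.523 and 1.06 CPM with Veh, 1.42, 0.609 and 1.37 CPM with HC3 and 2.24, 1.94 and 3.03 CPM with RSM. All RSM libraries were above the Veh libraries, whereas HC3 was above Veh in M[0] and overlapped it in M[IL-4]. RSM raised *Dgat2* 2.51-fold in M[0] (1.33 ± 0.38, FDR = 0.00935) and 2.68-fold in M[IL-4] (1.42 ± 0.38, FDR = 0.00603), and without replicate 3 these changes were 1.42 (FDR = 0.0709) and 1.37 (FDR = 0.086). With HC3 the log2 fold change was 0.89 ± 0.39 in M[0] (FDR = 0.0764, and 0.0247 with a replicate block within each polarization) and 0.34 ± 0.41 in M[IL-4] (FDR = 0.558). The 95% interval of the latter was -0.53 to 1.21.

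*Plin2* (chr4:86648386-86670060, minus strand) encodes perilipin 2, the main lipid droplet coat protein of macrophages. In M[0] its level was 1473, 1641 and 1369 CPM with Veh, 1815, 2007 and 1819 CPM with HC3 and 1802, 1956 and 1797 CPM with RSM. After IL-4 it stood at 1088, 1155 and 1030.2 CPM with Veh, 1809.6, 2062 and 1777 CPM with HC3 and 1678, 1939 and 1666 CPM with RSM. IL-4 separated the Veh libraries, and the 6 libraries of each inhibitor overlapped across polarizations. HC3 raised *Plin2* by 0.33 ± 0.082 in M[0] (FDR = 0.00285) and by 0.79 ± 0.082 in M[IL-4] (FDR = 3.65e-07). RSM raised it by 0.31 ± 0.082 (FDR = 0.00508) and 0.69 ± 0.082 (FDR = 1.67e-06). The M[0] changes lost the threshold without replicate 3 (0.29, FDR = 0.0693 for HC3 and 0.27, FDR = 0.0998 for RSM), and that of RSM also without replicate 1 (0.31, FDR = 0.0532).

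The lipases fell with both inhibitors. *Pnpla2* (chr7:141455198-141460743, plus strand) encodes adipose triglyceride lipase, which starts triglyceride breakdown at the droplet, and its level was 137, 144 and 146 CPM in Veh M[0], 87.5, 99.3 and 99.5 CPM in HC3 M[0] and 85.2, 97.2 and 97.3 CPM in RSM M[0]. With IL-4 it measured 142, 122 and 126 CPM with Veh, 113, 98.2 and 101 CPM with HC3 and 109.8, 105 and 100 CPM with RSM, and all inhibitor libraries were below the Veh libraries of their polarization. *Pnpla2* fell by 0.57 ± 0.076 with HC3 (FDR = 5.42e-06) and by 0.61 ± 0.076 with RSM (FDR = 2.83e-06) in M[0]. In M[IL-4] it fell by 0.32 (FDR = 0.00232) and 0.31 (FDR = 0.00291), which without replicate 3 became -0.32 and -0.30 with FDR of 0.0563 and 0.0715.

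*Lipa* (chr19:34492318-34527474, minus strand) encodes lysosomal acid lipase, which cleaves the cholesteryl esters and triglycerides of ingested lipoproteins. Its level was 3179, 3158 and 2924 CPM in Veh M[0], 2174, 2217 and 1981 CPM in HC3 M[0] and 1575, 1676 and 1662 CPM in RSM M[0]. The M[IL-4] libraries had 2779.5, 3339 and 2978 CPM with Veh, 2061, 2386 and 2134 CPM with HC3 and 1553, 1779 and 1650.0 CPM with RSM. The treatments did not overlap in either polarization, in the order Veh, HC3, RSM. *Lipa* fell 1.45-fold with HC3 (-0.54 ± 0.077, FDR = 1.4e-05) and 1.88-fold with RSM (-0.91 ± 0.077, FDR = 1.86e-08) in M[0], and 1.38-fold (FDR = 7.96e-05) and 1.83-fold (FDR = 4.04e-08) in M[IL-4]. All 4 changes passed under every alternative fitted.

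*Cpt1a* (chr19:3322334-3385733, plus strand) encodes carnitine palmitoyltransferase 1A, which commits long-chain fatty acids to mitochondrial oxidation. It measured 207, 219 and 209 CPM in Veh M[0], 142, 168 and 150.3 CPM in HC3 M[0] and 191, 222 and 216 CPM in RSM M[0]. After IL-4 the values were 177, 200.3 and 183 CPM with Veh, 151, 176 and 159 CPM with HC3 and 191, 219 and 199 CPM with RSM. HC3 libraries were below Veh in both polarizations, and RSM libraries overlapped Veh. HC3 lowered *Cpt1a* by 0.46 ± 0.08 in M[0] (FDR = 0.000114). Its fall of 0.21 ± 0.08 in M[IL-4] was at the threshold (FDR = 0.0498) and lost it when only the compared groups were fitted (0.0966), with scaling by library size alone (0.0807), without replicate 1 (0.0924) and without replicate 3 (0.274). With RSM the change was -0.01 in M[0] (95% interval -0.18 to 0.15) and 0.12 in M[IL-4] (FDR = 0.255, or 0.0268 under a replicate block within each polarization).

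**Figure D2:**
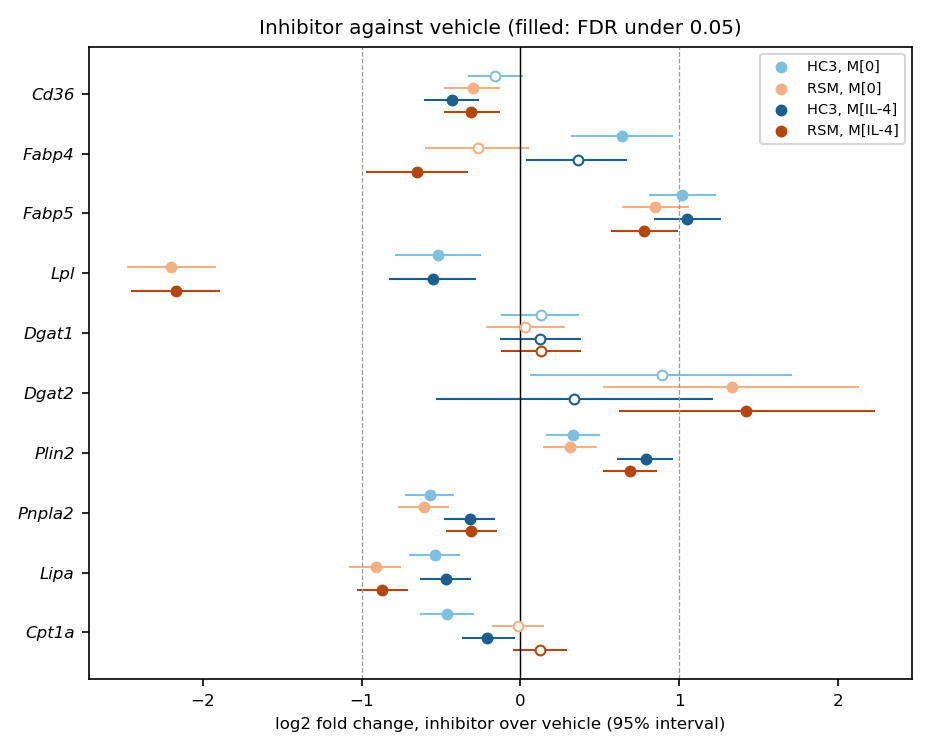
Log2 fold change of each member (horizontal axis, inhibitor over vehicle) for both inhibitors in either polarization, with 95% intervals from the edgeR fit. Filled points passed an FDR of 0.05, open points did not, and dashed lines mark 2-fold changes. *Lpl* with RSM lies at -2.20 and -2.17, and *Fabp4* has HC3 points right and RSM points left of 0.

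Setting HC3 (250 µM) directly against RSM (5 µM), doses that differ, 4 of 10 members differed in M[0], where 13.6% of all genes did, and 4 in M[IL-4], where 13.0% did. *Fabp4*, *Lpl* and *Lipa* were higher with HC3 and *Cpt1a* was higher with RSM, in both polarizations. The 2-fold threshold was reached by 1 member in M[0] (*Lpl*, 3.04% of all genes) and 2 in M[IL-4] (*Lpl* and *Fabp4*, 2.80% of all genes). *Fabp4* differed by 0.91 ± 0.15 in M[0] (FDR = 0.000423) and 1.01 ± 0.15 in M[IL-4] (FDR = 0.000155), the latter 0.91 without replicate 1. *Lipa* differed by 0.37 (FDR = 0.00241) and 0.40 (FDR = 0.00141), and *Cpt1a* by -0.45 (FDR = 0.000691) and -0.33 (FDR = 0.0095). Without replicate 3 the FDR of the *Lipa* differences became 0.0597 and 0.078, and that of the *Cpt1a* differences 0.0971 and 0.216.

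The other members did not pass this comparison. For *Plin2* the 95% interval of HC3 over RSM was -0.15 to 0.19 in M[0] and -0.07 to 0.27 in M[IL-4], and for *Pnpla2* it was -0.13 to 0.19 and -0.17 to 0.15. *Dgat2* was -1.08 ± 0.37 in M[IL-4] without overlap between the libraries (FDR = 0.0635, and 0.0088 with a replicate block within each polarization). *Fabp5* had differences of 0.17 and 0.27 (FDR of 0.296 and 0.088, and 0.0136 and 0.000212 with that block), and *Cd36* a difference of 0.15 in M[0] (FDR = 0.29, and just under 0.05 with that block).

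**Figure D3:**
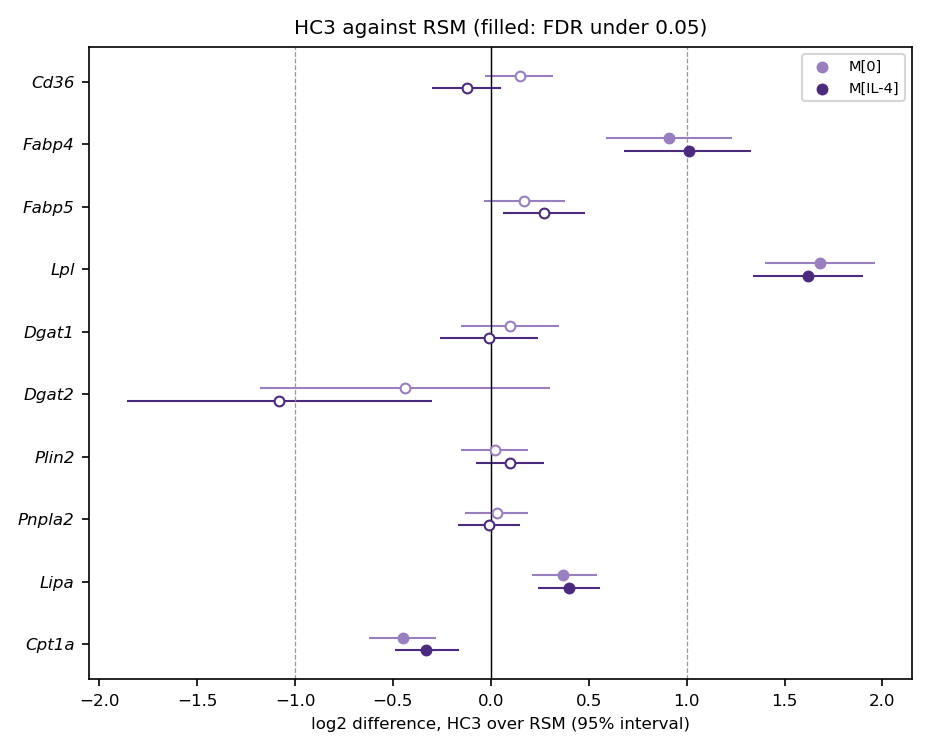
Log2 difference between HC3 and RSM (horizontal axis, positive where HC3 was higher) of each member in M[0] and M[IL-4], with 95% intervals. Filled points passed an FDR of 0.05. *Lpl*, *Fabp4* and *Lipa* lie right of 0 and *Cpt1a* left of 0 in both polarizations.

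IL-4 changed 4 of the 10 members in Veh-treated cells, where 31.0% of all genes passed. It raised *Cd36* 2.08-fold (1.06 ± 0.084, FDR = 1.69e-08) and *Lpl* 1.31-fold (0.39 ± 0.13, FDR = 0.0273). It lowered *Plin2* 1.37-fold (-0.45 ± 0.082, FDR = 0.000309) and *Fabp5* 1.23-fold (-0.30 ± 0.1, FDR = 0.0307). *Lipa* changed by -0.03 (95% interval -0.19 to 0.14). *Fabp4* changed by 0.40 (FDR = 0.056, and 0.000389 with a replicate block across polarizations) and *Cpt1a* by -0.18 (FDR = 0.0985, and 0.00735 with that block). The 2-fold threshold was reached by *Cd36* (6.66% of all genes), with log2 fold changes of 0.998 when scaled by library size alone and 0.947 without replicate 2. The *Lpl* change had an FDR of 0.0575 when scaled by library size, 0.0506 without replicate 1 and 0.218 without replicate 3, and the *Fabp5* change 0.0825 and 0.107 without replicates 1 and 3.

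After HC3, 1 member passed (*Cd36*, 0.78 ± 0.084, FDR = 2.01e-06), where 14.7% of all genes did, and 0 members reached 2-fold, where 3.97% did. That count of 0 from edgeR was also 0 at an unadjusted p under 0.05 and with DESeq2. *Lpl* (0.36) and *Fabp5* (-0.26) had FDR of 0.0734 and 0.0876 there, and 0.0254 and 0.00275 with a replicate block across polarizations. After RSM, 3 members passed, where 15.5% of all genes did, and 1 (*Cd36*) reached 2-fold, where 4.26% did. IL-4 then raised *Cd36* by 1.05 ± 0.084 (FDR = 2.81e-08) and *Lpl* by 0.42 ± 0.13 (FDR = 0.0333), and lowered *Fabp5* by 0.36 ± 0.099 (FDR = 0.0176). The *Lpl* change after RSM lost the threshold in 5 of the 10 alternatives fitted, with an FDR of 0.0629, 0.12 and 0.116 without replicates 1, 2 and 3, and that of *Fabp5* without replicates 1 and 3 (0.143 and 0.187). *Cd36* after RSM was 0.988 when scaled by library size alone.

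Whether the inhibitors acted differently in the 2 polarizations was tested with the interaction term. The term passed for 1 of 10 members with HC3, where 6.48% of all genes passed, and for 1 with RSM, where 9.19% did. The member was *Plin2* in both, whose inhibitor change was larger in M[IL-4] than in M[0] by 0.46 ± 0.12 for HC3 (FDR = 0.0232) and 0.38 ± 0.12 for RSM (FDR = 0.0452). Without replicates 1 and 3 the FDR was 0.132 and 0.226 for HC3, and without replicates 1, 2 and 3 it was 0.177, 0.0507 and 0.263 for RSM, which also lost the threshold with only the compared groups (0.0585) or without mitochondrial genes (0.0564). With a replicate block within each polarization the interaction also passed for *Cpt1a* (0.26, FDR = 0.00469), *Pnpla2* (0.26, FDR = 0.00731), *Cd36* (-0.27, FDR = 0.0158) and *Fabp4* (-0.29, FDR = 0.0427) with HC3, and for *Pnpla2* (0.30, FDR = 0.00148) and *Fabp4* (-0.40, FDR = 0.00603) with RSM.

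**Figure D4:**
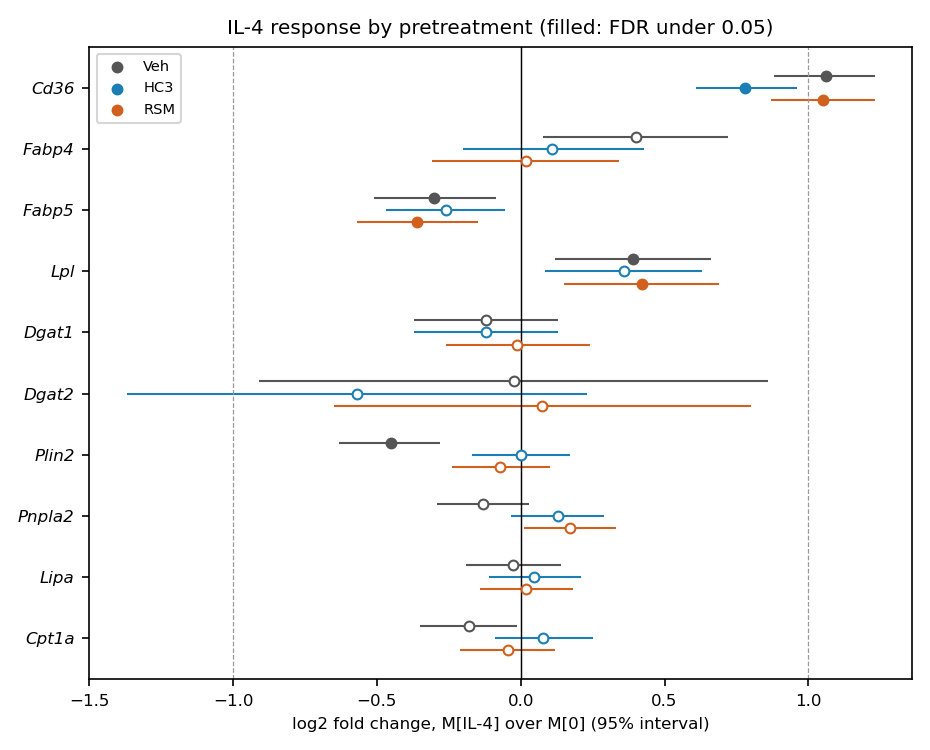
Log2 fold change of M[IL-4] over M[0] (horizontal axis) of each member after Veh, HC3 or RSM, with 95% intervals. Filled points passed an FDR of 0.05 and dashed lines mark 2-fold changes. *Cd36* rose after all 3 pretreatments, and *Plin2* lies at -0.45 after Veh, at 0.002 after HC3 and at -0.073 after RSM.

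Levels of different genes were compared as CPM per kb of merged exons, a scale that corrects for length. In Veh M[0] the order was *Lpl* (706 ± 11 CPM per kb, SD, n = 3), *Lipa* (455 ± 20.9), *Plin2* (426 ± 39.1), *Cd36* (351 ± 16.8), *Fabp5* (94.4 ± 9.94), *Pnpla2* (47.1 ± 1.4), *Cpt1a* (27.7 ± 0.873), *Fabp4* (11.8 ± 2.39), *Dgat1* (5.76 ± 0.575) and *Dgat2* (0.292 ± 0.138). *Lipa* and *Plin2* overlapped between libraries and the other neighbours did not. In RSM M[0] *Plin2* (527 ± 25.8 CPM per kb) led and *Lpl* (154 ± 32.8 CPM per kb) was the fifth, behind *Cd36*, *Lipa* and *Fabp5*, the last of which it overlapped. In HC3 M[0] *Plin2* (535 ± 31.2 CPM per kb) and *Lpl* (492 ± 85.6 CPM per kb) overlapped at the top, and in HC3 M[IL-4] *Lpl* (630.5 ± 6.02 CPM per kb) led *Cd36* (540.4 ± 20.5 CPM per kb) and *Plin2* (536 ± 44.5 CPM per kb), which overlapped. In Veh M[IL-4] *Lpl* (926 ± 82.1 CPM per kb) was followed by *Cd36* (729 ± 81.4 CPM per kb), and in RSM M[IL-4] *Cd36* (588 ± 26.5 CPM per kb) led *Plin2* (501 ± 43.9 CPM per kb). Per kb of the longest protein-coding transcript, a length chosen after the data were seen, *Fabp4* moved from rank 8 to rank 6 in all 6 groups, since its merged exons are 4489 bases long and that transcript 896. On that scale other orders changed too. *Plin2* (932.6 CPM per kb) led *Cd36* (621 CPM per kb) in RSM M[IL-4], and *Lpl* (1253.5 CPM per kb) was above *Plin2* (996 CPM per kb) on average in HC3 M[0]. *Lipa* (1021 CPM per kb) led *Cd36* (769.9 CPM per kb) in Veh M[IL-4]. In RSM M[0] *Fabp5* (613 CPM per kb) was above *Cd36* (300.2 CPM per kb). *Lpl* (391 CPM per kb) was there above *Cd36* on average, with overlapping libraries.

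Promoter sequences of RefSeq (GRCm38.p6) were matched for 5 of the 10 members (*Plin2*, *Cd36*, *Lipa*, *Pnpla2* and *Cpt1a*), each from 250 bases before to 50 after the start. Shown are the member with the interaction, the member raised most by IL-4 and the lysosomal lipase that fell with both inhibitors, all on the minus strand and written 5′ to 3′, with matched motifs in capitals (CACGTG, the E-box, TTCNNNNGAA, the STAT6 motif, and AGGTCA on the other strand, the nuclear receptor half-site):
Plin2 (chr4:86670010-86670309): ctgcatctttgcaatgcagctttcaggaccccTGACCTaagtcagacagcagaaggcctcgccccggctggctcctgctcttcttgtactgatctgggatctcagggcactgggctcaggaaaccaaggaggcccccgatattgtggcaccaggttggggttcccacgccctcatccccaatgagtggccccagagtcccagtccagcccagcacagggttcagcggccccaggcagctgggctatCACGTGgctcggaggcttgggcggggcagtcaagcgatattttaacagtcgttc
Cd36 (chr5:17835847-17836146): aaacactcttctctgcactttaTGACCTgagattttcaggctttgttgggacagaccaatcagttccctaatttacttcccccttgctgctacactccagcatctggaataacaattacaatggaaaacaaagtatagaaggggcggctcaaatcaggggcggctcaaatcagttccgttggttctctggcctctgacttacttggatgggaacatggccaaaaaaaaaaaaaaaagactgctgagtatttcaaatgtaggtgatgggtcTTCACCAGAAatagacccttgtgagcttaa
Lipa (chr19:34527425-34527724): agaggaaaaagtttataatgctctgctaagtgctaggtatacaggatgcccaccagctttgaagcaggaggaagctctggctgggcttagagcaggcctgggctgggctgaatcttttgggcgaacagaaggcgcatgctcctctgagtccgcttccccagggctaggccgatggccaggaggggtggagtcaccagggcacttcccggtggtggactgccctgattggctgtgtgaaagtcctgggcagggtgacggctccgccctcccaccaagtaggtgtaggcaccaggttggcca
The *Plin2* window holds CACGTG beginning 4 bases before the start and the half-site 218 bases before it. The *Cd36* window, at a start inside the gene's GENCODE span, holds a STAT6 motif match beginning 20 bases after the start and the half-site 228 bases before it, and the *Lipa* window holds none of the motifs searched. Over all 32851 windows, CACGTG occurred in 7.15%, TTCNNNNGAA in 6.95%, AGGTCA in 16.3%, the C/EBP-ATF motif TGATGNAA in 3.97% and the DR1 motif, 2 copies of AGGTCA spaced by 1 base, in 0.0396%, on either strand. The half-site also occurred in the *Cpt1a* window, and *Pnpla2* had no match. A match is a description of letters and not a measured site.

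Other genes of the same pathways were counted from 6 lists of 85 genes, of which 70 passed the count filter. Shares and medians of each list are in the order HC3 M[0], RSM M[0], HC3 M[IL-4] and RSM M[IL-4]. Over all tested genes 44.1, 41.1, 38.8 and 38.6% had an FDR under 0.05, with median log2 fold changes of 0.023, 0.0053, 0.0063 and 0.019. Of 12 tested genes of fatty acid uptake, binding and activation, 2 rose and 4 fell with HC3 and 2 rose and 3 fell with RSM in M[0], whereas after IL-4 2 rose and 4 fell with HC3 and 2 rose and 3 fell with RSM. Their median log2 fold changes were -0.19, -0.11, -0.081 and -0.10 in that order. *Dbi*, which encodes acyl-CoA-binding protein, fell from 91.6 ± 14.4 CPM (SD, n = 3) in Veh M[IL-4] to 41.5 ± 3.16 CPM with HC3 (log2 fold change -1.14, FDR = 3.06e-07) and 43.8 ± 3.91 CPM with RSM (-1.07, FDR = 6.07e-07). In M[0] *Dbi* stood at 52.5 ± 4.92 CPM with Veh, 31.4 ± 3.73 CPM with HC3 and 34.7 ± 4.08 CPM with RSM. The libraries of each inhibitor lay below the Veh ones there too. *Vldlr*, the receptor for very low density lipoprotein, rose with RSM by 1.71 in M[0] (FDR = 1.09e-05) and 1.91 in M[IL-4] (FDR = 5.57e-06). Its rise with HC3 was 0.83 (FDR = 0.00988) and 0.93 (FDR = 0.00816). *Acsl3*, a droplet-associated acyl-CoA synthetase, fell with HC3 by 0.45 (FDR = 0.00246) in M[0] and 1.09 (FDR = 3.23e-07) in M[IL-4]. With RSM it fell by 0.63 in M[IL-4] (FDR = 0.000129), and its change in M[0] was 0.25 (FDR = 0.0757, and 0.0441 with a replicate block within each polarization). Without replicate 3 the HC3 change of *Acsl3* in M[0] was -0.38 (FDR = 0.0652), and that of *Vldlr* was 0.79 (FDR = 0.0969). Without replicate 1 the HC3 changes of *Vldlr* were 0.74 in M[0] (FDR = 0.124) and 0.89 in M[IL-4] (FDR = 0.0895).

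Of 13 tested genes of glycerolipid and cholesteryl ester synthesis, 7 rose and 2 fell with HC3 and 6 rose and 2 fell with RSM in M[0]. After IL-4 7 rose and 4 fell with HC3 and 5 rose and 3 fell with RSM. Of this list 69.2, 61.5, 84.6 and 61.5% passed, with medians of 0.23, 0.056, 0.14 and 0.16. *Soat2*, a sterol acyltransferase that makes cholesteryl esters, rose from 0.641 ± 0.359 CPM in Veh M[0] (SD, n = 3, 4 to 17 counts per library) to 26.2 ± 3.32 CPM with HC3 (FDR = 1.65e-12) and 26.3 ± 2.37 CPM with RSM (FDR = 2.41e-12). After IL-4 the rise was from 1.27 ± 0.277 CPM with Veh to 33.9 ± 3.55 CPM with HC3 (FDR = 2.36e-12) and 28.3 ± 3.55 CPM with RSM (FDR = 7.05e-12). These log2 fold changes of 4.47 to 5.32 exceeded those of every member. *Gpat3*, a glycerol-3-phosphate acyltransferase with 3 to 9 counts per library in Veh M[IL-4], rose by 1.68 with HC3 (FDR = 9.86e-05) and 3.13 with RSM (FDR = 2.64e-08) in M[0], and by 2.58 (FDR = 9.79e-06) and 3.64 (FDR = 4.45e-08) in M[IL-4]. The phosphatidic acid phosphatases diverged, since *Lpin3* rose in all 4 comparisons (0.86 to 2.39, largest FDR 0.0492) and *Lpin2* fell in all 4 (-1.01 to -0.28, largest FDR 0.00273). The *Lpin3* change with HC3 in M[IL-4] was at the threshold and lost it in 7 of 11 alternatives, among them the removal of replicate 1 (0.80, FDR = 0.195), 2 (0.87, FDR = 0.0948) or 3 (0.93, FDR = 0.112).

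Of 9 tested genes of the droplet coat and droplet growth, 4 rose and 2 fell with HC3 and 5 rose and 3 fell with RSM in M[0]. After IL-4 4 rose and 2 fell with HC3 and 5 rose and 1 fell with RSM. Of this list 66.7, 88.9, 66.7 and 66.7% passed, with medians of 0.20, 0.27, 0.09 and 0.23. *Hilpda*, whose product binds and inhibits adipose triglyceride lipase, rose with RSM from 5.45 ± 0.572 to 25.5 ± 3.6 CPM (SD, n = 3) in M[0] (FDR = 2.64e-10) and from 5.5 ± 0.185 to 30.4 ± 3.09 CPM in M[IL-4] (FDR = 8.91e-11). With HC3 it rose to 12 ± 1.74 CPM (FDR = 2.51e-06) and 10.5 ± 1.09 CPM (FDR = 3.78e-05), and the difference of HC3 over RSM was -1.09 in M[0] (FDR = 8.82e-06) and -1.54 with IL-4 (FDR = 1.28e-07). *Plin4*, another perilipin, fell with RSM in M[0] (-1.62, FDR = 0.0354), but not past the threshold without replicate 1 (-1.53, FDR = 0.145) or 3 (-1.59, FDR = 0.227). In M[IL-4] its RSM change was -0.86 (FDR = 0.255, or 0.00191 under a replicate block within each polarization), and HC3 over RSM in M[0] was 1.48 (FDR = 0.113, or 1.74e-05 under that block). *Plin1*, *Plin5*, *Cidea*, *Cideb*, *Cidec* and *Fitm1* did not pass the filter, with at most 7 counts in any library.

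Among 7 other tested hydrolases, 1 rose and 3 fell with HC3 and 0 rose and 4 fell with RSM in M[0]. After IL-4 1 rose and 2 fell with HC3 and 0 rose and 2 fell with RSM. Of this list 57.1, 57.1, 42.9 and 28.6% passed, with medians of -0.027, -0.60, -0.07 and -0.29. *Mgll*, the monoacylglycerol lipase that completes triglyceride breakdown, moved in opposite directions, with 6.51 ± 1.39 CPM (SD, n = 3) in Veh M[0], 14.6 ± 0.986 CPM with HC3 (FDR = 7.11e-05) and 2.78 ± 0.481 CPM with RSM (FDR = 0.000143). The difference of HC3 over RSM was 2.39 ± 0.21 in M[0] (FDR = 2.35e-07) and 1.87 ± 0.22 in M[IL-4] (FDR = 7.46e-06). In M[IL-4] the change of *Mgll* was 0.95 with HC3 (FDR = 0.00104) and -0.92 with RSM (FDR = 0.00314), the latter -0.83 (FDR = 0.0617) without replicate 3. *Daglb*, a diacylglycerol lipase, fell with both inhibitors, with changes of -1.25 and -1.61 in M[0] and -1.65 and -2.19 after IL-4 (largest FDR 2.53e-10). The counts of 0 that rose with RSM, from edgeR, were 0 in M[0] and 2 in M[IL-4] at an unadjusted p under 0.05, and 0 with DESeq2.

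Of 22 tested genes of fatty acid oxidation, 2 rose and 9 fell with HC3 and 2 rose and 7 fell with RSM in M[0], whereas after IL-4 2 rose and 9 fell with HC3 and 3 rose and 7 fell with RSM, with medians of -0.096, -0.078, -0.24 and -0.094. *Hadhb*, a subunit of the mitochondrial trifunctional protein, fell by 0.67 with HC3 (FDR = 4.37e-06) and 1.01 with RSM (FDR = 3.18e-08) in M[0], and by 0.70 (FDR = 2.96e-06) and 0.92 (FDR = 8.78e-08) in M[IL-4]. In Veh-treated cells 8 rose and 1 fell after IL-4, where 16.1% of all genes rose and 14.9% fell, and *Hadhb* rose by 0.48 (FDR = 0.000294).

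Of 7 tested transcription regulators of lipid genes, 0 rose and 4 fell with HC3 and 1 rose and 3 fell with RSM in M[0]. After IL-4 0 rose and 5 fell with HC3 and 1 rose and 4 fell with RSM. Of this list 57.1, 57.1, 71.4 and 71.4% passed, with medians of -0.24, -0.11, -0.63 and -0.83. *Pparg*, a nuclear receptor for fatty acid derivatives, fell in M[0] from 100 ± 5.34 CPM (SD, n = 3) with Veh to 52.2 ± 5.32 CPM with HC3 (FDR = 9.37e-07) and 31.6 ± 4.58 CPM with RSM (FDR = 6.99e-10). After IL-4 the fall was from 172 ± 24 CPM to 111 ± 9.35 CPM (FDR = 8.18e-05) and 89 ± 4.41 CPM (FDR = 7.03e-07). *Tfeb*, a regulator of lysosomal genes, fell by 0.59 with HC3 (FDR = 6.33e-05) and 1.09 with RSM (FDR = 4.43e-08) in M[0], and by 0.77 (FDR = 2.59e-06) and 1.12 (FDR = 2.48e-08) in M[IL-4]. *Ppargc1b*, a coactivator that IL-4 raised in Veh-treated cells by 2.45 (FDR = 3.98e-08), fell in M[IL-4] by 1.09 with HC3 (FDR = 0.000132) and 1.70 with RSM (FDR = 1.1e-06). The counts of 0 that rose with HC3, from edgeR, were 1 in M[0] and 0 in M[IL-4] at an unadjusted p under 0.05, and 0 with DESeq2. *Ppara* and *Ppargc1a* did not pass the count filter, with at most 4 and 6 counts in a library.

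**Figure D5:**
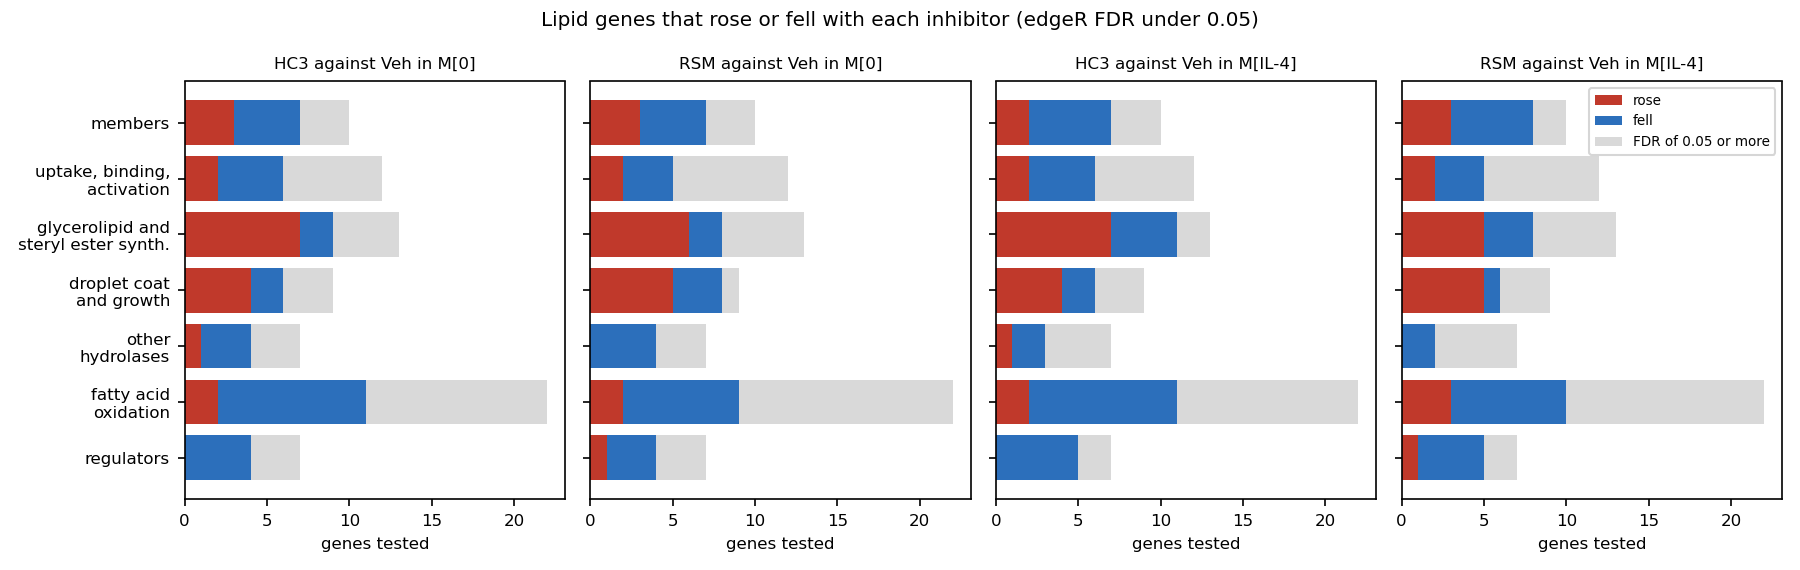
Numbers of tested genes (horizontal axes) that rose, fell or had an FDR of 0.05 or more in the member set and 6 other lipid lists, for each inhibitor against vehicle. Among the members 7, 7, 7 and 8 of 10 passed, where 44.1, 41.1, 38.8 and 38.6% of all tested genes did. Among 22 fatty acid oxidation genes 2 rose and 9 fell with HC3 in M[0], where 22.6% and 21.5% of all genes did.

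Among all tested genes, those whose log2 CPM followed *Lpl* most closely over the 18 libraries were *Pea15a* (Pearson r = 0.964), *Plk2* (0.96) and *Pcna* (0.945). For *Cd36* they were *Dhrs9* (0.983), *Scn3a* (0.976) and *Gm8113* (0.976), and for *Dgat2*, the member with few counts, *Snhg18* (0.882), *Cdr2l* (0.88) and *Nr1d1* (0.88). These 3 members had the largest gaps between group means. The libraries share the 6 groups, so these coefficients describe the groups' order as much as the libraries.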

How the data were processed

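RNA was sequenced from 18 BMDM libraries, 3 in each of 6 groups. Per the study's methods, adapters were cut off with fastp, STAR placed read pairs on GRCm38, pairs with a mapping quality of 40 were kept and duplicates were marked with Picard but not removed. The authors then deposited raw counts of exonic reads per gene from featureCounts. Tool versions, the annotation release and the strand setting are not given in the sources used here. The exons of the 10 members overlap no other gene of the annotation used here, on either strand. Gene IDs were matched to GENCODE M21 (55144 of 55385).

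The filter kept the 14979 genes that reached 10 counts in 2 or more libraries. The counts were scaled by TMM and fitted over all 18 libraries with 1 coefficient per group by edgeR 4.0.16 (glmQLFit and glmQLFTest) in R 4.3.3, a two-sided test, with the authors' thresholds (an FDR below 0.05, and for a 2-fold call a log2 change of 1 or more in either direction). The replicate numbers in the labels were checked for pairing. Same-numbered libraries deviated together within a polarization (r of 0.11 to 0.372 across genes, 18 of 18 pairs over 0.1). Across polarizations r was -0.031 to 0.3, with 12 of 27 pairs over 0.1, so a shared mouse there was not settled. The fit with a replicate block within each polarization is therefore given where it changed the call of a member or of a named pathway result. Replicate libraries differed by more than counting noise (chi-square per gene 6.3 to 20.3). Alternatives were DESeq2 1.42.0, other count filters, library size alone, the compared groups only, mitochondrial genes left out, replicate blocks and each replicate left out. The fits were tested on simulated counts with 200 changed genes in HC3 M[0], drawn without a shared replicate effect, so pairing was not part of that check. At an FDR under 0.05, edgeR recovered 194 with 10 false calls, DESeq2 198 with 20, and edgeR with a replicate block 194 with 7.

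Near-identical stretches were found with blastn 2.17.0 (at least 98% identity over 100 bases). Named pathway genes were, in each list, those called 2-fold in at least 1 inhibitor comparison with at least 50 mean counts in the higher group, at most 4 by lowest FDR, and *Pparg*. For the 3 members with the widest range of group means, the 3 genes with the highest correlation of log2 CPM were named. Members and lists were chosen with earlier results of these data known.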

Additional observations from a re-analysis of the deposited data

Results flagged for a closer look

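The following genes had inhibitor effects that differed between M[IL-4] and M[0] by the interaction term of the edgeR fit, given as the log2 effect in M[IL-4] minus that in M[0]. *Plin2* had 0.46 with HC3 (FDR = 0.0232) and 0.38 with RSM (FDR = 0.0452). With both inhibitors its 3 treated libraries lay above the 3 Veh ones in M[IL-4] and also in M[0]. *Lpin2*, a phosphatidic acid phosphatase, had 0.64 with HC3 (FDR = 0.000423) and 0.47 with RSM (FDR = 0.00331), so its fall was smaller in M[IL-4]. *Acsl3*, an acyl-CoA synthetase, had -0.64 with HC3 (FDR = 0.0201) and -0.88 with RSM (FDR = 0.000983). *Daglb*, a diacylglycerol lipase, had -0.41 (FDR = 0.0294) and -0.58 (FDR = 0.00178), so its fall was larger in M[IL-4]. *Ppargc1b*, a transcription coactivator, had -1.58 (FDR = 0.00256) and -1.96 (FDR = 0.00029), with changes in M[0] of 0.49 for HC3 and 0.26 for RSM that did not pass the test. *Pparg*, a nuclear receptor, had 0.72 with RSM (FDR = 0.00467). With a replicate block within each polarization the interaction also passed for *Pparg* with HC3 (0.31, FDR = 0.0117) and for *Dbi*, an acyl-CoA-binding protein, with RSM (-0.46, FDR = 0.0293). Without replicate 3 the interaction lost the threshold for *Lpin2* (FDR of 0.0821 with HC3 and 0.127 with RSM), *Daglb* (0.374 and 0.105) and *Pparg* (0.125 with RSM). The HC3 interaction also lost it without replicates 1, 2 and 3 for *Acsl3* (0.082, 0.245 and 0.154), without replicate 2 for *Daglb* (0.143), and without replicates 2 and 3 for *Ppargc1b* (0.0734 and 0.0728). That of *Plin2* is described above with the replicates it depends on.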

How the results depend on the processing

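Of 1180 alternative values for the 110 member results, 1088 kept their side of the threshold, 41 lost it, 51 passed it and 0 reversed a called change, and 44 values in 22 results that did not pass had another sign. For the 165 results of named pathway genes, 1645 of 1770 values kept their side, 75 lost it and 50 passed it. The number of members called 2-fold was 0 with mitochondrial genes left out for HC3 in M[0], and 0 with library size alone for IL-4 after Veh and after RSM. Leaving out a replicate gave 0 to 1 members for HC3 in M[0], HC3 in M[IL-4] and IL-4 after Veh, and 1 to 2 for RSM M[0], RSM M[IL-4] and HC3 against RSM in M[IL-4]. With the FDR alone it was 7, 7, 7 and 8 for HC3 M[0], RSM M[0], HC3 M[IL-4] and RSM M[IL-4], where 44.1, 41.1, 38.8 and 38.6% of all genes passed. It was 4, 1 and 3 for IL-4 after Veh, HC3 and RSM, 4 and 4 for HC3 against RSM, and 1 and 1 for the interactions. The shares of all genes for these are given with the results. The number of all genes called fell without a replicate to 344 to 552 of 594 for IL-4 after HC3, 419 to 550 of 638 after RSM, 257 to 408 of 456 and 218 to 377 of 419 for HC3 against RSM in M[0] and M[IL-4], 41 to 145 of 186 for the HC3 interaction and 131 to 279 of 321 for that of RSM, the lowest each time without replicate 3. These fits hold fewer samples.

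The replicate block within each polarization raised the HC3 interaction count to 288 genes, and changed no member call other than those given with the results. It could not be fitted for IL-4, which it is confounded with. Whether a replicate number stands for the same mouse in both polarizations was not settled. A replicate block across polarizations passed *Cpt1a* (-0.18, FDR = 0.00735) and *Fabp4* (0.40, FDR = 0.000389) for IL-4 after Veh. After HC3 it passed *Fabp5* (-0.26, FDR = 0.00275) and *Lpl* (0.36, FDR = 0.0254). Depth limits *Dgat2*, *Lpin3*, *Soat2* with Veh and *Gpat3* with Veh, whose libraries held few counts.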
